A study of Homo sapiens with 6 samples.

Results

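Clot formation starts when tissue factor, the product of F3, is exposed to blood, and clots are removed when plasminogen is converted to plasmin. The 9 genes described here code for the initiator of coagulation (F3), its Kunitz-type inhibitor (TFPI) and the related TFPI2, the thrombin receptors THBD and F2R, the plasminogen activators PLAT and PLAU, the urokinase receptor PLAUR, and SERPINE2, a serpin that inhibits thrombin and plasminogen activators. They were selected by symbol as 9 of the 33900 genes in the count table. F3 was picked for its strong fall in the comparison of rhSema3C with PBS, and the other 8 were added for their place in the same systems. The difference of every member in that comparison is therefore a description, and no p-value is given for a member.

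Tissue factor is a membrane protein that binds factor VII and so starts the cascade that ends in thrombin and fibrin. TFPI stops this step. Thrombin cleaves the receptor F2R (PAR1) to signal to cells, or binds thrombomodulin, the product of THBD, and then activates protein C. Urokinase (PLAU), held at the cell surface by PLAUR, and tissue-type plasminogen activator (PLAT) turn plasminogen into plasmin, which degrades fibrin and matrix proteins, and serpins such as SERPINE2 block them. In the liver, stellate cells are known to carry PAR1 and to turn over matrix through the plasminogen system.

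The RNA came from LX-2, an established human hepatic stellate cell line with the label WT as its genotype. Cells in DMEM with 10% fetal bovine serum received recombinant human Sema3C (rhSema3C), a secreted semaphorin, at 300 ng/ml, or PBS as the control, and were harvested after 48 h. Each group had 3 samples, called biological replicates in the labels. The labels do not say whether these were separate cultures, so errors and p-values measure only the spread between these samples, of 1 cell line at 1 dose and 1 time.

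Total counts per sample ran from 68267808 to 89245585. The deposited counts were scaled to CPM, the usual unit of counts relative to library size, with TMM factors, which were 0.958 to 0.968 in the PBS samples and 1.03 to 1.04 in the rhSema3C samples, and FPKM, the deposited value per transcript length, was used for levels. A gene is called where its adjusted p in edgeR's quasi-likelihood test, fitted over 14178 genes, was below 0.05. Mitochondrial genes took 4.75% to 5.42% of the counts with PBS and 3.73% to 3.93% with rhSema3C. In the stellate cell and fibroblast list, 5 of 8 markers passed the filter on low values, and VIM and COL1A1 were abundant while the stellate markers DES and LRAT and also COL1A2 were at or near 0. The summed FPKM of that list was 1239 to 1294 with PBS and 988 to 1052 with rhSema3C, most of it VIM (means of 1036 and 834). COL1A1 (-0.78), ACTA2 (-0.56), VIM (-0.41) and SPARC (-0.28 on the log2 scale) were called lower, and PDGFRB (0.09) was not called. FPKM carries no TMM factor, and its sum over all genes was 288170 to 297340 with PBS and 265980 to 268530 with rhSema3C. All other marker sums were small. That of the 6 hepatocyte genes was 2.65 to 3.15 against 3.52 to 4.16 (ALB and APOA1 at or near 0, with SERPINA1 carrying the sum), that of the 6 endothelial genes 1.47 to 1.88 against 1.94 to 2.35 (PECAM1 and CDH5 near 0, TEK and KDR expressed and not called, VWF rising from 1.12 to 6.83 CPM with the sum), and that of the 5 leukocyte genes 4.40 to 5.48 against 3.00 to 3.59 (PTPRC near 0, with CD14, which was called lower, at 8.27 against 4.73 CPM as most of the sum). The megakaryocyte and epithelial lists stayed at or under 1.59 and 0.619 in every sample. The part of the mitochondrial share and of these sums in the results below was not tested.

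Promoters are shown for F3, PLAU and SERPINE2, the members with the largest differences between the groups. They are RefSeq promoter sequences on GRCh38.p14, written 5′ to 3′ on the strand of the gene, and capitals mark matches to the motifs searched. The F3 stretch lies at chr1:94541801-94542009 on the minus strand, and the PLAU stretch at chr10:73910882-73911103 on the plus strand before the second of its 2 listed starts. The SERPINE2 stretch lies at chr2:224031479-224031728 on the minus strand. It precedes the downstream of the 2 listed starts of SERPINE2, which lies within the gene.

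F3: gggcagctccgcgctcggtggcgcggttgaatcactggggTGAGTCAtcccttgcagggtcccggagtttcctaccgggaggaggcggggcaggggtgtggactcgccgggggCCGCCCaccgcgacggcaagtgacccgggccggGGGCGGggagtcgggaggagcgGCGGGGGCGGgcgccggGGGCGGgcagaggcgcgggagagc

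PLAU: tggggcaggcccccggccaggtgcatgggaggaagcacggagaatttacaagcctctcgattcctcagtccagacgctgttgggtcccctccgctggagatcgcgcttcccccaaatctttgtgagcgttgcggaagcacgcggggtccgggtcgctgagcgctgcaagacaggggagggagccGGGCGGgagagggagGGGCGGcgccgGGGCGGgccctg

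SERPINE2: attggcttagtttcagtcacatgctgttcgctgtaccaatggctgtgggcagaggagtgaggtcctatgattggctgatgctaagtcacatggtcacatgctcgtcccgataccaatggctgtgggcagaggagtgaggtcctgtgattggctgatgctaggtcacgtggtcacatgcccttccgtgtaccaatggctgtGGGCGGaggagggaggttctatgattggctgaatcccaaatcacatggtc

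The 250 bases before each start were searched on both strands for 8 motifs, and the share of all 35116 promoter windows that hold each is given beside it. The SP1 letters GGGCGG were in 42.6% of windows and the EGR1 letters GCGNGGGCG in 8.41%. The AP-1 letters TGACTCA were in 4.2% and the TATA box, spelled TATAAA, in 10.7%. The CRE letters TGACGTCA were in 1.65%, the TEAD letters GGAATG in 11.9%, the CARE letters TGATGCAA in 0.772% and an NF-kB motif in 9.96%. The F3 window held 4 SP1 matches, 1 EGR1 match that overlaps an SP1 match, 1 AP-1 match 210 bases before the start and 1 TATA box 28 bases before it, the latter outside the stretch printed. The PLAU window shown held 3 SP1 matches and the SERPINE2 window 1, and the other windows of these genes held none and 2 SP1 matches. The PLAUR window held 1 EGR1 and 1 AP-1 match, that of TFPI2 held 2 SP1, 1 EGR1 and 1 NF-kB match, and that of TFPI held none. No CRE, TEAD or CARE letters were found in these windows. A match is a description of the letters and not a bound site. Only these letters were searched, so a site spelled otherwise stays in lower case. The lack of a match, as for NF-kB at F3, is therefore not the lack of a site. In all, 6 of the 9 members and 8 windows were matched, and THBD, F2R and PLAT were not.

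Of the initiation step, the receptor was lower and its circulating inhibitor higher with rhSema3C. F3 (ENSG00000117525, chr1:94529173-94541759, minus strand) stood at 184.1, 181.9 and 180.3 CPM in PBS samples 1, 2 and 3 and at 55.1, 57.9 and 52.5 CPM in rhSema3C samples 1, 2 and 3. The groups lay far apart, and the 3 PBS samples differed from each other by little, with a coefficient of variation of 1.05%. The mean was 182 ± 1.92 CPM with PBS and 55.2 ± 2.69 CPM with rhSema3C (SD, n = 3), a log2 fold change of -1.72 (SE 0.05) that puts F3 at 3.30-fold lower and at rank 58 by fall among the 14178 genes tested. Its counts per sample ran from 4373 to 15756. In bulk RNA, fewer cells with a transcript and less of it per cell cannot be told apart, for F3 and for every gene below.

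TFPI (ENSG00000003436, chr2:187464230-187554492, minus strand), the inhibitor of the complex of tissue factor and factor VII, was measured at 21.7, 21.0 and 19.8 CPM with PBS and at 26.6, 31.6 and 28.2 CPM with rhSema3C. All 3 treated samples were above all 3 controls. The means of 20.9 ± 0.940 and 28.8 ± 2.52 CPM (SD, n = 3) gave a log2 fold change of 0.47 (SE 0.08), or 1.38-fold higher. TFPI2 (ENSG00000105825, chr7:93885396-93890753, minus strand), a Kunitz-type inhibitor that is deposited in the extracellular matrix and inhibits plasmin, went the other way. It was the most abundant member, at 1793, 1657 and 1701 CPM with PBS and 1253, 1308 and 1226 CPM with rhSema3C. The groups did not overlap, and the log2 fold change was -0.44 (SE 0.04), 1.36-fold lower.

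The ratio of F3 to TFPI within a sample, taken on FPKM, combines the opposite differences of the receptor and its inhibitor. It was 34.5, 35.2 and 37.0 with PBS and 8.43, 7.46 and 7.55 with rhSema3C, a mean of 35.6 ± 1.26 against 7.81 ± 0.535 (SD, n = 3), 4.56-fold lower. The ratio of F3 to TFPI2 was 0.0899 ± 0.00299 against 0.0370 ± 0.000630, 2.43-fold lower. These ratios compare transcripts and use the lengths behind the deposited FPKM, which cancel in the fold between groups.

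**Figure D1:**
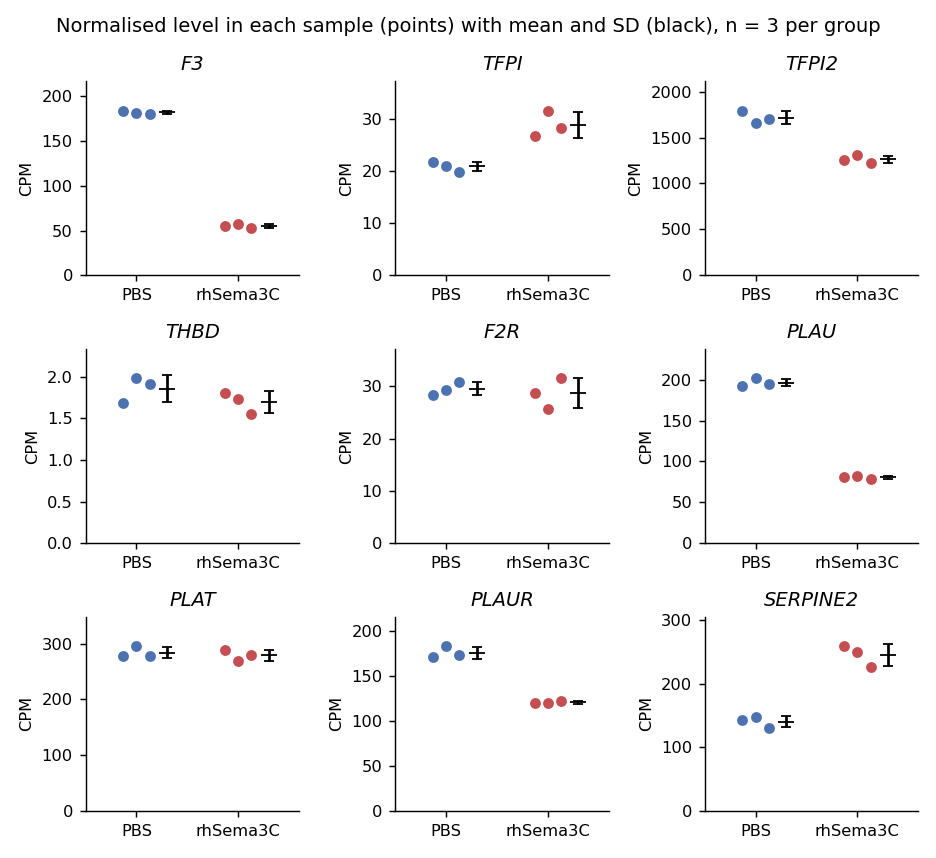
CPM (linear axis from 0) of each of the 9 genes in the 3 PBS and the 3 rhSema3C samples, 1 point per sample, with the mean and SD as black bars. The groups are apart for F3, TFPI, TFPI2, PLAU, PLAUR and SERPINE2 and overlap for THBD, F2R and PLAT.

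The thrombin receptors showed no such separation. F2R (ENSG00000181104, chr5:76716126-76735770, plus strand), the main thrombin-activated receptor of fibroblast-like cells, was at 28.4, 29.3 and 30.8 CPM with PBS and at 28.8, 25.8 and 31.5 CPM with rhSema3C. The lowest and the highest of the 6 values were both rhSema3C samples, and the groups overlapped. The log2 fold change was -0.04 (SE 0.08), did not pass the threshold, and turned positive (0.03) without rhSema3C replicate 2. THBD (ENSG00000178726, chr20:23045633-23049672, minus strand), the cofactor by which thrombin activates protein C, was low, with 126 to 159 counts per sample. Its levels were 1.68, 1.98 and 1.92 CPM with PBS and 1.81, 1.74 and 1.55 CPM with rhSema3C, and the groups overlapped. With a mean of 0.427 FPKM it did not reach the minimum of 0.5 FPKM for testing, and the fit of all genes without that filter, in which 24.8% of 33900 genes were called, gave a log2 fold change of -0.14 (SE 0.20) that did not pass.

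Of the plasminogen activators, PLAU was lower with rhSema3C and PLAT was not called. PLAU (ENSG00000122861, chr10:73909177-73917494, plus strand), urokinase, was at 192.7, 201.6 and 195.3 CPM with PBS and at 81.1, 81.6 and 78.9 CPM with rhSema3C. All treated samples lay within 3 CPM of each other and below every control. The mean fell from 197 ± 4.57 to 80.5 ± 1.44 CPM (SD, n = 3), a log2 fold change of -1.29 (SE 0.04) or 2.44-fold lower, rank 132 by fall. PLAT (ENSG00000104368, chromosome 8), tissue-type plasminogen activator, was at 277, 295 and 279 CPM with PBS and 289, 270 and 279 CPM with rhSema3C. The groups overlapped, and the log2 fold change of -0.02 (SE 0.04) did not pass. Its sign turned without PBS replicate 2 (0.0070) and without rhSema3C replicate 2 (0.0032). The ratio of PLAU to PLAT within a sample, on FPKM, moved from 1.66 ± 0.0228 to 0.693 ± 0.0289 (SD, n = 3), so that urokinase RNA was above that of PLAT in all 3 PBS samples and below it in all 3 rhSema3C samples on that scale of length.

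PLAUR (ENSG00000011422, chr19:43646095-43670169, minus strand), which holds urokinase at the cell surface, was lower along with its ligand, though by less. It stood at 170.5, 182.8 and 173.1 CPM with PBS and at 120.2, 119.4 and 122.4 CPM with rhSema3C. The groups did not overlap, and the log2 fold change was -0.54 (SE 0.04), 1.45-fold lower. The ratio of ligand to receptor, PLAU to PLAUR on FPKM, went from 1.69 ± 0.0234 to 1.01 ± 0.0309 (SD, n = 3), 1.68-fold lower. Its size, though not its fold, depends on the length used. With the longest transcript as the length, PLAU was below PLAUR with PBS (71.2 against 104) and with rhSema3C (31.3 against 77.1).

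SERPINE2 (ENSG00000135919, chr2:223975045-224039290, minus strand), also called protease nexin-1, inhibits thrombin, urokinase and plasmin near the cell surface and had the largest rise among the members. Its levels were 143.1, 146.7 and 130.1 CPM with PBS and 258.6, 249.1 and 225.8 CPM with rhSema3C. All treated samples were above all controls, although the replicates were more spread than those of F3 or PLAU. The mean went from 140 ± 8.74 to 244 ± 16.9 CPM (SD, n = 3), a log2 fold change of 0.80 (SE 0.06) or 1.75-fold higher. The ratio of PLAU to SERPINE2, protease to inhibitor on FPKM, was 4.28 ± 0.252 with PBS and 1.00 ± 0.0544 with rhSema3C, 4.26-fold lower. With the longest transcript as the length, PLAU was above SERPINE2 with PBS (71.2 against 22.4) and below it with rhSema3C (31.3 against 42.0).

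**Figure D2:**
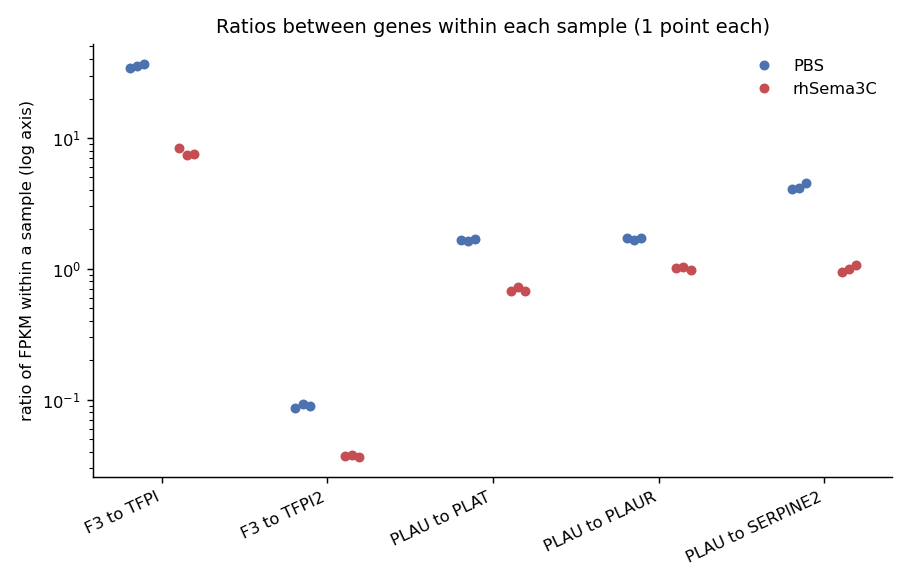
Ratios of FPKM between the genes named on the horizontal axis, within each sample (log axis, 1 point per sample, 3 PBS and 3 rhSema3C). All 5 ratios are lower with rhSema3C, and none overlaps between the groups.

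Counted over the members, 8 of 9 passed the filter on low values. With an adjusted p below 0.05 in edgeR's quasi-likelihood test, 2 were called higher (TFPI and SERPINE2) and 4 lower (F3, TFPI2, PLAU and PLAUR), and F2R and PLAT did not pass. In this comparison 62.3% of the 14178 genes tested were called, 31.7% higher and 30.6% lower, so a call alone does not set a gene apart here. F3 and PLAU also passed a fold change of 2, as 5.37% of all genes tested did. In 6 of the 9 members the groups did not overlap in CPM, which held for 67.8% of genes tested. Because F3 was chosen on this contrast and the list was drawn up with its results known, nothing is read from these counts. The median log2 fold change of the 8 members tested was -0.24, against 0.02 over all genes tested, and the median of its absolute value was 0.503 against 0.340.

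The signs of the 6 members called did not depend on how the samples were scaled. When library size alone was used, the median log2 fold change of all genes moved from 0.02 to 0.13. With FPKM rescaled to TPM and fitted with limma on log2(TPM + 1), it moved to 0.23. The calls over all genes then went from 4490 higher and 4339 lower to 5641 and 3433 and to 6934 and 2428. F3 ranged from -1.76 to -1.48 on the log2 scale over all 15 alternatives, PLAU from -1.30 to -1.05, PLAUR from -0.56 to -0.31, TFPI2 from -0.47 to -0.22, TFPI from 0.38 to 0.61 over the 14 that tested it, and SERPINE2 from 0.75 to 1.02. PLAT was called higher with TPM (0.20), which is below that setting's median of 0.23, and the members called were then 3 higher and 4 lower.

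**Figure D3:**
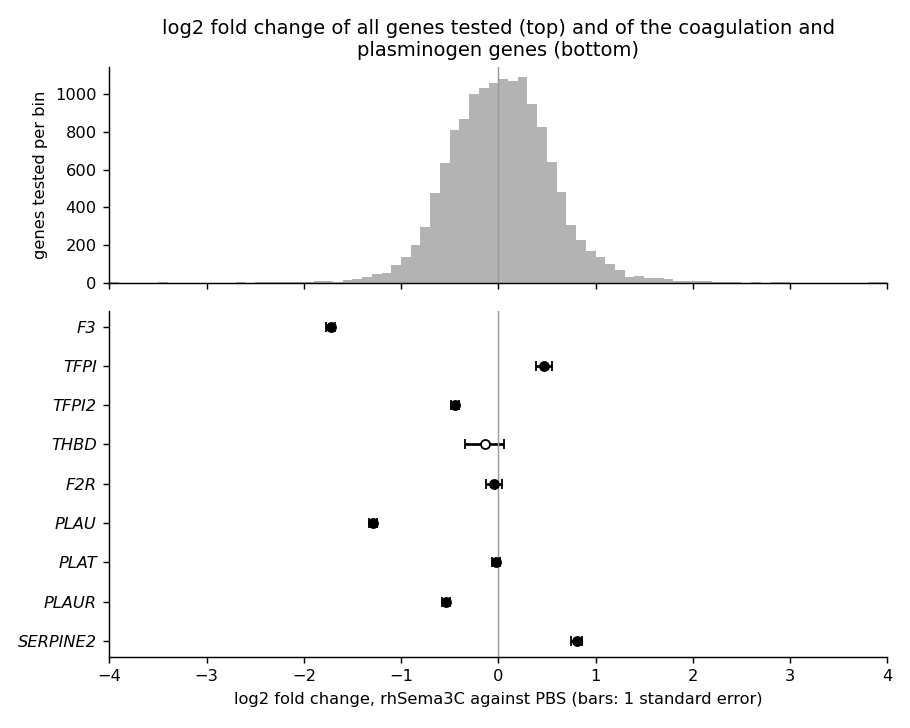
Top, a histogram of the log2 fold change (rhSema3C against PBS) of the genes tested, in bins of 0.1 between -4 and 4 with more extreme values in the end bins; bottom, the log2 fold change of each member with bars of 1 standard error (open symbol for THBD, from the fit without the filter). F3 at -1.72 and PLAU at -1.29 lie in the left tail, and TFPI at 0.47 and SERPINE2 at 0.80 on the right.

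Levels between genes were compared per length, on FPKM. With PBS the order was TFPI2 (659), PLAU (62.5), F3 (59.2), PLAT (37.6), PLAUR (36.9), SERPINE2 (14.6), F2R (6.97), TFPI (1.67) and THBD (0.431 FPKM), and the ranges of neighbours overlapped only for PLAT and PLAUR. With rhSema3C it was TFPI2 (520), PLAT (39.7), PLAU (27.5), SERPINE2 (27.5), PLAUR (27.2), F3 (19.2), F2R (7.27), TFPI (2.47) and THBD (0.423 FPKM). PLAU, SERPINE2 and PLAUR could then not be told apart by their ranges. F3 moved from the third place to the sixth, PLAT from the fourth to the second, and TFPI2 stayed first in both groups.

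This order depended on the length used. The lengths implied by the deposited counts and FPKM were close to all exons of a gene joined together, for PLAUR 4563 bases against 1610 in its longest GENCODE transcript and for PLAT 7251 against 3462. With the longest transcript as the length, an alternative chosen after the data were seen, PLAUR (104) came next to TFPI2 (672) with PBS, followed by PLAT (78.5), F3 (76.3) and PLAU (71.2 FPKM), and PLAT and F3 overlapped. With rhSema3C the order became TFPI2 (531), PLAT (83.0), PLAUR (77.1), SERPINE2 (42.0), PLAU (31.3) and F3 (24.8 FPKM). PLAT was then above PLAU with PBS as well. The places of F2R, TFPI and THBD were the same with either length.

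**Figure D4:**
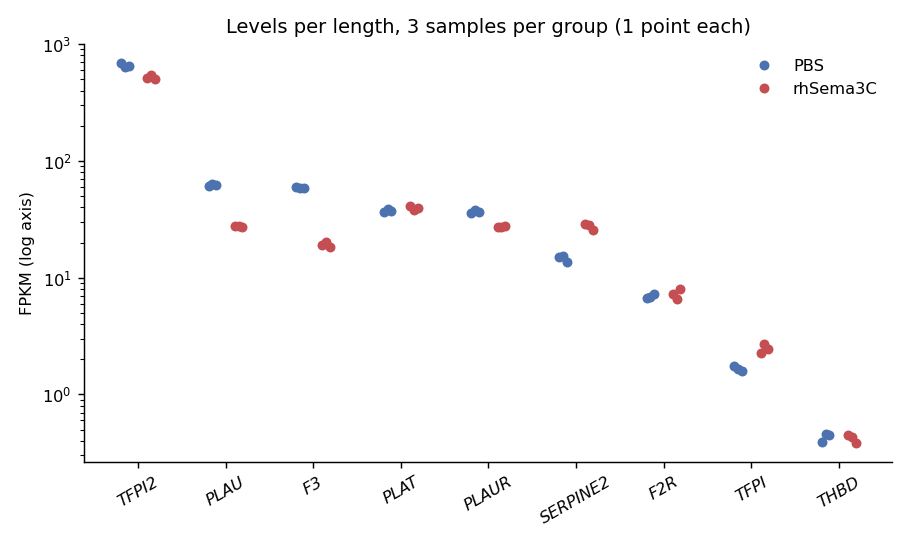
FPKM (log axis) of the 9 genes in the 3 PBS and 3 rhSema3C samples, 1 point per sample, in order of the PBS mean. TFPI2 runs from 506 to 690 FPKM and THBD from 0.387 to 0.455 FPKM, and F3 is the gene with the widest gap between the groups.

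Likeness to F3 over the 6 samples was measured by the root mean square difference of log2 CPM centred on each gene's mean. This measure follows the size of the difference as well as its shape. Of the genes tested, 13869 with a symbol were compared, which left out unnamed, LINC, LOC and antisense genes. The 5 of them most like F3 are given. These were TXNRD2 (0.036), a mitochondrial thioredoxin reductase, MARCHF4 (0.060), a membrane-bound ubiquitin ligase, MMP3 (0.064), a secreted metalloproteinase also called stromelysin-1, TGM2 (0.085), a transglutaminase, and CCND1 (0.087), cyclin D1. Their log2 fold changes were -1.74, -1.75, -1.70, -1.73 and -1.59. PLAU, the nearest other member, had a difference of 0.221 from F3. All 6 samples entered, so the likeness mostly restates the gap between the groups.

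Around the members, 55 further genes were listed by function. They are genes of coagulation and plasminogen activation and 6 transcription factors known at the F3 promoter. Of the 55 genes, 51 were in the table and 29 were tested. In edgeR's quasi-likelihood test 5 were called higher and 18 lower, with a median log2 fold change of -0.27. The 6 transcription factors, all tested, gave 1 of the higher and 4 of the lower calls. The share called among all genes tested was 62.3%. In 25 of the 29 the groups did not overlap in CPM, against 67.8% of all genes tested. With limma on log2(TPM + 1) the split became 10 higher and 7 lower, so the balance of this list depended on the fit. That fit differs in its scaling and also adds a pseudocount of 1, which weighs on low genes such as F12. F12, VKORC1, VKORC1L1, PROCR, ENO1, SERPINB2, P4HB, XKR8 and RELA were then lower but not called, ANXA5 and ANXA2 turned to 0.05 and were not called, and F10, LRP1, VTN, SERPINB6 and SP1 were called higher. Only SERPIND1 passed a fold change of 2. Genes of this list are named below partly for the size of their difference. Their adjusted p-values, taken over all genes tested, are therefore a description and not a separate test.

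Most factors of the cascade itself were not expressed. F7, F11, KLKB1, KNG1, F2, F5, F13A1, FGA, FGB and FGG had means below 0.2 CPM in both groups. F12, the contact factor, fell from 3.59 ± 0.651 to 2.25 ± 0.0504 CPM (SD, n = 3), or -0.67 on the log2 scale (adjusted p = 0.0094, edgeR's quasi-likelihood test). F10, the factor activated by tissue factor and factor VII, had a log2 fold change of 0.37 that did not pass (adjusted p = 0.16, edgeR). All 3 genes of vitamin K carboxylation, by which clotting factors gain their calcium-binding residues, were lower, GGCX at -0.45, VKORC1 at -0.33 and VKORC1L1 at -0.29 on the log2 scale.

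Among anticoagulant genes, SERPIND1 (heparin cofactor II), a thrombin inhibitor, fell from 3.23, 4.05 and 2.80 CPM to 0.835, 0.689 and 0.552 CPM. Its log2 fold change was -2.27 (SE 0.24, adjusted p = 1e-05, edgeR's quasi-likelihood test). That is larger than the log2 fold change of F3, at a far lower CPM. The order turned with limma on log2(TPM + 1), at -1.41 for SERPIND1 and -1.48 for F3. With limma on log2(FPKM + 1) they were -0.86 and -1.57. The pseudocount of 1 in both fits weighs on SERPIND1, at 1.35 FPKM with PBS and 0.296 FPKM with rhSema3C. F12 was also smaller with limma on log2(FPKM + 1), at -0.28. PROCR, the endothelial protein C receptor, and ANXA5, which covers phosphatidylserine, fell (-0.27 and -0.18), PROS1, the protein C cofactor protein S, rose (0.35), and SERPINA5 had -0.26 and did not pass. The fall of ANXA5 was not called with library size alone either. Of the genes that act on phosphatidylserine exposure or on tissue factor activity, the scramblase ANO6 (0.41) and PLSCR1 (0.54) rose, while the scramblase XKR8 (-0.36) and the disulfide isomerase P4HB (-0.25) fell.

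On the plasminogen side, PLG itself was not analysed here. Of the cell-surface proteins that bind plasminogen, S100A10 (-0.44), ENO1 (-0.31) and ANXA2 (-0.18) fell and PLGRKT rose (0.58). The call of ANXA2 was lost with library size alone. The clearance receptor LRP1 (0.12) and VTN (0.21), vitronectin, did not pass. The urokinase inhibitor SERPINB2 (PAI-2) fell by 0.30 on the log2 scale, from 1626 ± 54.2 to 1322 ± 2.83 CPM (SD, n = 3), and SERPINB6 was at -0.03 and did not pass.

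Of the transcription factors whose motifs are known in the F3 promoter, and for which EGR1, AP-1 and SP1 letters are printed above, EGR1 went from 236 ± 21.0 to 137 ± 2.09 CPM (SD, n = 3). Its log2 fold change was -0.79 (SE 0.06, adjusted p = 7.6e-07, edgeR's quasi-likelihood test). The AP-1 genes did not move one way, with FOS at -0.84 and JUN at -0.35 lower and FOSL1 at 0.21 higher, and FOSL1 was the most abundant of them on FPKM. RELA fell (-0.28), and SP1 at 0.10 did not pass. Whether any of these RNA differences acts on F3 was not tested.

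**Figure D5:**
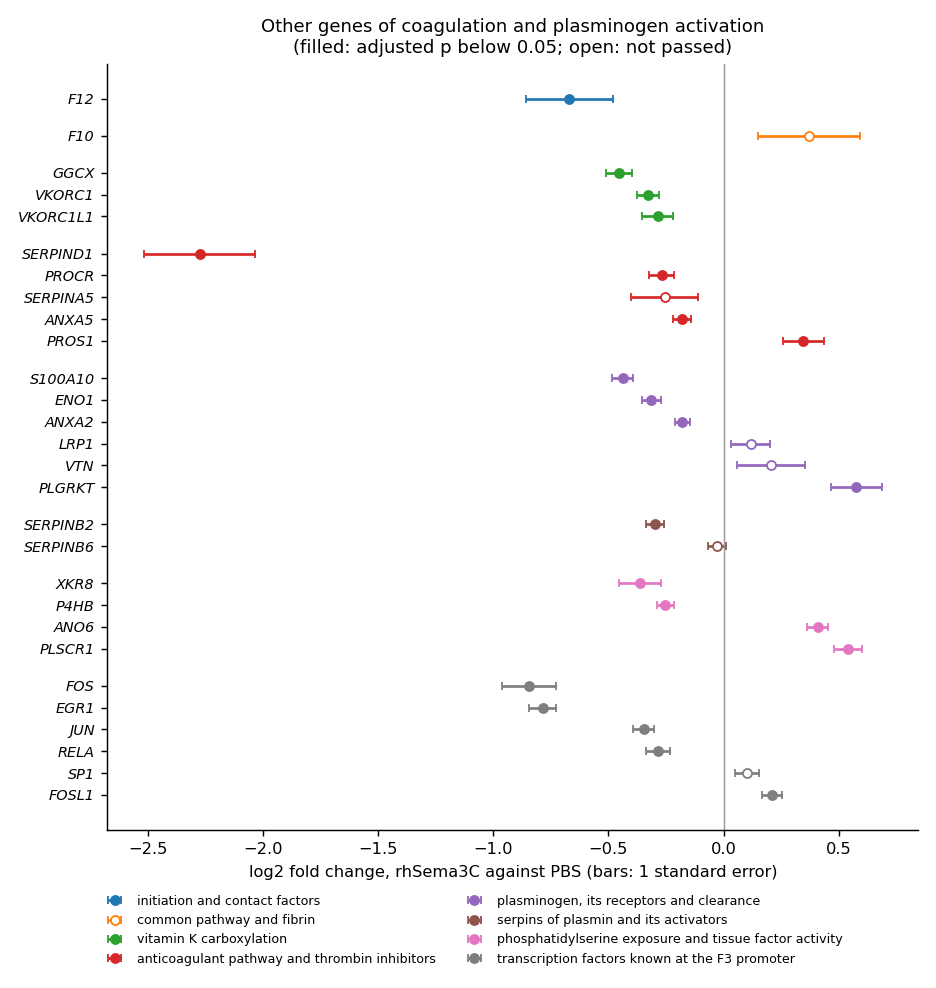
log2 fold change (rhSema3C against PBS) of 28 of the 29 tested genes of the pathway list, grouped by role in colour, with bars of 1 standard error; filled symbols passed an adjusted p below 0.05. SERPIND1 at -2.27 stands apart, and 17 filled symbols lie left of 0 and 5 right of it.

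Of the genes under the filter, VWF, F8 and F2RL2 are given because their values were seen to differ. VWF, the platelet-binding carrier of factor VIII, was at 1.02, 1.02 and 1.34 CPM with PBS and 7.03, 5.61 and 7.84 CPM with rhSema3C, a log2 fold change of 2.59 (SE 0.19) in the fit without the filter. F8, factor VIII, went from 2.47 ± 0.159 to 5.32 ± 0.747 CPM (SD, n = 3), a log2 fold change of 1.09. F2RL2 (PAR3), another thrombin receptor, went from 1.86 ± 0.339 to 0.566 ± 0.121 CPM, a log2 fold change of -1.72, while F2RL1 and F2RL3 stayed under 1.5 CPM in every sample. SERPINA10, of the anticoagulant genes listed, also differed under the filter. It went from 0.319 ± 0.136 to 0.982 ± 0.0440 CPM (SD, n = 3), a log2 fold change of 1.59 in the fit without the filter. No p-value is given for VWF, F8, F2RL2 or SERPINA10, which were named for this difference. VWF, F8 and F2RL2 were below 1 FPKM in both groups, where a pseudocount weighs heavily. With limma on log2(FPKM + 1) VWF was at 0.59, F8 at 0.30 and F2RL2 at -0.37.

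The KEGG annotation of the deposited table gave a list not made for these genes. Its set for complement and coagulation cascades held 7 of the members, and without them 59 genes, 28 of which are also in the list above. Of the 25 tested, 8 were higher, 7 lower and 10 did not pass, with a median log2 fold change of 0.05. With library size alone and with limma on log2(FPKM + 1) the split was 12 higher and 6 lower, and with TPM 14 and 3. Among the genes that passed the filter and were called, the largest rises were those of the complement genes C5 (0.96), CD55 (0.93) and C3AR1 (0.75), and SERPIND1 and F12 were among the 3 largest falls. CD55, which protects cells from complement, was at 17.2, 21.1 and 24.1 CPM with PBS and at 40.2, 43.9 and 34.7 CPM with rhSema3C.

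Some members share their place with other genes. PLAU overlaps C10orf55 on the other strand, which had 55 to 142 counts per sample, and TFPI2 overlaps GNGT1, which had 0 to 3 counts. Antisense genes overlap TFPI, TFPI2 and F2R, and PLAUR overlaps RN7SL368P on the same strand. Low non-members with protein-coding genes on the other strand include F12 (GRK6), SERPIND1 (PI4KA), F2RL2 (IQGAP2), VTN (SARM1) and F8 (H2AFB1, F8A1 and FUNDC2). Whether reads were counted by strand is not given in the sources used here, so reads of such partners cannot be told apart from those of the named gene.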

How the data were processed

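RNA sequencing was analysed for 3 PBS and 3 rhSema3C samples of LX-2 cells. For each gene and sample the authors deposited a raw count and an FPKM value, scaled by them to length and library size. The study's methods name Cufflinks and cuffmerge. How reads were aligned and counted, whether by strand, and on which build are not given in the sources used here. Coordinates of 9 of 9 members overlapped the same gene in GENCODE release 29 on GRCh38. Low counts were uneven: of counts from 1 to 16, 30.7% were multiples of 4. For some genes 1 fragment may therefore stand for several counts, and the counts, errors and calls of low genes (THBD, SERPIND1, F12, VWF) may rest on fewer fragments than the counts show.

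The filter asked for 0.5 FPKM on average over all 6 samples, and the 14178 genes of 33900 that met it were fitted with edgeR's quasi-likelihood test on counts with TMM factors, two-sided, with Benjamini-Hochberg adjustment over all of them. The SE of a log2 fold change was its size divided by the square root of F. Genes under the filter were taken from the same fit without it. Replicates were compared by chi-square over genes (16.0 to 27.9 per degree of freedom), and none were duplicates. The fit was run on simulated data with 200 changed genes, as many raised as lowered. In the data 62.3% of the genes tested were called, so the simulation does not test the scaling under such a share. The work was done in R 4.3.3 with DESeq2 1.42.0, edgeR 4.0.16 and limma 3.58.1.

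The members and lists were chosen with earlier results of these data known. Named genes were all members and the markers. Per role of the pathway list, they were up to 4 tested genes with the largest change and up to 2 with the highest FPKM. The 3 largest rises and falls called in the KEGG list and the 5 genes with a symbol most like F3 were added. VWF, F8, F2RL2 and SERPINA10 were chosen after their values were seen. SP1 and the genes named as not expressed complete their lists. Another tested gene of the pathway and KEGG lists is counted with them but not reported here. Promoter motifs were searched in RefSeq windows. Intervals for counting error are not given, and no molecular identifiers were named, so counts are not counted molecules. The authors' processing bears on levels through the length used for FPKM. Alternatives were the scaling (median-of-ratios, library size, TPM), the filter (none, or mean FPKM of at least 5) and DESeq2. Others were limma on log2(FPKM + 1) or log2(FPKM + 0.1), the replicate number as a block, and the removal of 1 sample at a time. TPM was fitted with limma on log2(TPM + 1).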

Additional observations from a re-analysis of the deposited data

How the results depend on the processing

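Over the 9 members and 38 other named genes, 643 log2 fold changes kept their direction and side of the threshold under an alternative. Any fit with the same sign but no adjusted p was placed among these. With the sign kept, 16 lost and 7 gained their call. Another 21 changed sign, some of them with a change of call as well. The sign changed only for genes with a log2 fold change between -0.18 and -0.02. For F2R it was 0.067 with library size alone, 0.175 with TPM, 0.065 with a filter at 5 FPKM, 0.051 and 0.057 with limma on FPKM plus 1 and 0.1, and -0.113 to 0.032 without 1 sample. For PLAT, in the same order, it was 0.085, 0.203, 0.083, 0.078 and 0.080, and -0.050 to 0.0070 without 1 sample, with 0.0032 without rhSema3C replicate 2. SERPINB6 was 0.079, 0.192, 0.077, 0.066 and 0.074, and with TPM THBD was 0.059, ANXA5 0.047 and ANXA2 0.048. With library size alone, TPM and limma on FPKM the median of all genes also moved up, from 0.02 to between 0.09 and 0.23. When the filter was set at 5 FPKM, 5232 of 6971 genes were called, since fewer genes were tested, and TFPI was not tested.

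Leaving out 1 sample at a time gave 6 members called in each case, 8060 to 8504 genes in all, and -1.76 to -1.69 for F3. The same replicate numbers did not pair the samples (correlations of -0.0041, 0.058 and -0.027 between deviations of same-numbered samples). With the replicate number as a block 8341 genes, 6 members, 23 pathway genes and 14 KEGG genes were called. With 3 samples a group, 1 line, 1 dose and 1 time, differences of the size of those of F2R and PLAT were not detectable, and RNA says nothing of protein level or activity.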
